A study of Homo sapiens with 20 samples.

Results

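Baseline RNA turnover in vehicle-treated myeloma cells was read from the 9 labelled DMSO libraries of a SLAM-seq experiment, set against its 2 libraries without label. In SLAM-seq, living cells build 4-thiouridine (4sU) into new RNA, and after alkylation the sequencer shows C at those positions. Reads that carry such conversions, T>C reads, therefore come from RNA made while 4sU was present. Each gene was represented by the transcript with the most reads, and its labelled share was the T>C reads as a percentage of all reads in the 9 DMSO libraries, less the same percentage without 4sU. A gene was measured where both sides held 500 or more reads, which kept 6556 of 19617 genes. They took in 97.18% of the DMSO reads and 93.03% of the T>C reads. At that limit, the share was 4.64% in ABCC10, 2.84% in NICN1 and 3.58% in SORT1, just inside with 500 reads each without 4sU, and 6.39% in ACTR10 and 2.62% in CMTM7, just outside with 499.

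The cells were wild-type MM1.S, an established multiple myeloma line, in which malignant plasma cells grow in culture. The DMSO groups were harvested 2, 6 and 24 h after vehicle was added, with 4sU present for the last 1 h and 3 replicates per time. The 2 no4sU libraries came from the same line with no treatment or time given in their labels, so they control for conversions that arise without label and not for time in culture. The remaining 9 of the 20 libraries, of cells given 10 nM dCBP-30, a degrader of the acetyltransferases CBP and p300, entered only 1 comparison, at 2 h. Only 3′ ends of polyadenylated RNA were sequenced, and nothing in the labels says that replicates were separate cultures, so p-values measure the spread between these samples, which may be technical.

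RNA level reflects a balance of synthesis and decay. At a steady level, a short-lived RNA is replaced quickly and is mostly new after a brief pulse of label, whereas a long-lived RNA remains mostly old. Messages for transcription factors, cytokine and growth factor feedback regulators and cell cycle inhibitors are classically short-lived, and messages for ribosomal proteins and metabolic enzymes are classically long-lived.

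The labelling and the identity of the cells were first checked. Over all genes, T>C reads made up 6.00% to 6.13% of reads in the DMSO 2 h libraries, 6.24% to 6.59% at 6 h and 8.15% to 8.62% at 24 h, against 0.794% and 0.809% without 4sU, and the DMSO libraries held between 14758154 and 18729086 reads. All 10 plasma cell markers were read in every library group, and together they gave 5557 to 6833 RPM (reads scaled to 1000000 per library) in DMSO. The other 4 marker lists were far lower: the highest sums in DMSO were 7.08 RPM for T cells, 9.91 for erythroid cells (of which HBB gave 4.24 to 9.84), 1.76 for epithelial cells or fibroblasts and 0.850 for monocytes. CD3D, LYZ and ALAS2, defining markers of T cells, monocytes and erythroid cells, had 0 reads in all 11 libraries. CD3E, another T cell marker, did have reads and gave most of the T cell sum, with 1.83 to 6.72 RPM in DMSO.

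The labelled share ran from under 1% to nearly 90%. Its median over the 6556 genes was 7.66%, with quartiles of 4.12% and 13.6% and 5th and 95th percentiles of 1.60% and 30.1%. If RNA levels stay constant and every RNA made in the hour yields a T>C read, a share of 50% is a half-life of 1 h, and the median share is an apparent half-life of 8.70 h with quartiles of 4.73 and 16.5 h. These half-lives restate the shares under that assumption and make no allowance for growth of the cells. They are upper values only with respect to new RNA that went unmarked. By share, 118 genes lay under 1%, 1983 between 1 and 5%, 3612 between 5 and 20%, 765 between 20 and 50% and 78 at 50% or more (1.19% of genes). Without no4sU replicate 1, when 4485 genes passed the read minimum, 47 were at 50% or more, and from DMSO 24 h alone 135 were. The 78 genes gave 0.491% of the reads and 4.90% of the T>C reads.

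**Figure D1:**
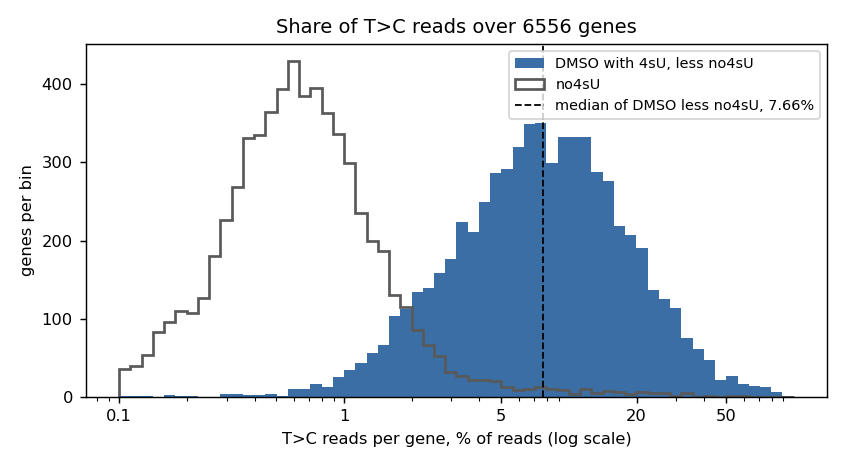
The labelled share of 6556 genes (filled; DMSO with 4sU less no4sU) and the share without 4sU (outline), as genes per bin against percent of reads on a log scale that starts at 0.1%, so 22 genes of the first and 284 of the second fall below it. The median labelled share, 7.66%, is marked by the dashed line, and most genes without label lie near 0.60%.

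In nearly every gene, labelling raised the T>C share above the unlabelled background. edgeR's quasi-likelihood test, run on T>C reads with each gene's own reads as offset, called 6229 of 6556 genes (95%) higher in DMSO than without 4sU at an adjusted p under 0.05 and a ratio over 2, and 0 lower. Of the 327 genes not called, 81 were among the 123 genes with more than 5% T>C reads without 4sU. The highest such background was 56.3%, in SCAMP4, where the labelled libraries held 50.2%. Calls covered all 78 genes at 50% or more, all 765 between 20 and 50%, 3579 of 3612 between 5 and 20%, 1777 of 1983 between 1 and 5% and 30 of 118 under 1%. At the slow end, then, the share was seldom told apart from background.

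The highest share over the 9 libraries belonged to MYC, the transcription factor that drives growth and ribosome production. Its T>C reads made up 86.9% of reads in the lowest of the 9 labelled libraries, 89.8% in the median and 91.8% in the highest, whereas background was 0.625% and 0.138%. This left a share of 89.2%, an apparent half-life of 18.7 min. At 24 h alone, the mean of MYC, 89.9% ± 1.84 (SD, n = 3), was below those of SGK1 (93.2% ± 1.34), HES1 (90.1% ± 4.54) and MYLIP (90.1% ± 1.47), by less than the spread between replicates except for SGK1. PRDM1 (Blimp-1), the repressor that fixes plasma cell identity, was also among the 15 highest shares at 73.3%, with libraries between 69.2% and 81.6% (median 72.5%). Background was 0.752% and 0.792%. Both factors were thus largely new RNA in each labelled library, and no labelled library came near the unlabelled ones.

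Signalling regulators filled much of the rest. SGK1, a kinase induced by serum and glucocorticoids, stood at 85.4% (75.6% to 94.6%, median 87.5%), with 0 T>C reads in both unlabelled libraries. DUSP2, a nuclear phosphatase that switches off ERK, stood at 82.7% (72.9% to 91.4%, median 85.0%). SMAD7, the feedback inhibitor of TGF-β receptors, stood at 80.1% (74.5% to 88.1%, median 81.0%). Their labelled libraries all lay far above the unlabelled ones, which held at most 2.27% T>C reads. TRIB1, a pseudokinase scaffold for protein degradation, stood at 75.7% (70.7% to 86.9%, median 77.7%). GADD45B, a stress-induced regulator of MAP kinase signalling, stood at 73.2% (67.7% to 79.2%, median 75.2%).

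Transcription factors and regulators of mRNA decay were the other large group. KLF2, a zinc finger factor that restrains lymphocyte activation, had a share of 81.9% (78.3% to 87.8%, median 83.0%). HES1, the repressor downstream of Notch, had a share of 76.4% and the widest spread of the 15, from 56.7% to 93.3% (median 77.5%), on 2176 reads. ZFP36 (tristetraprolin), which binds AU-rich elements and recruits the deadenylation machinery, had a share of 81.5% (78.0% to 88.4%, median 82.7%). Thus the message of a decay factor was itself among those with the most new RNA. ZC3H12A (Regnase-1), an endonuclease of inflammatory messages, had a share of 78.1% (72.9% to 82.3%, median 79.2%). BTG2, an antiproliferative protein that binds the deadenylase complex, had a share of 75.3% (68.2% to 84.1%, median 75.2%).

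The remaining 3 of the 15 were metabolic or secreted regulators. MYLIP, a ubiquitin ligase induced by sterols, stood at 83.2% (77.7% to 91.5%, median 83.1%). TXNIP, which restrains thioredoxin and glucose uptake, stood at 78.8% (75.6% to 85.5%, median 79.0%). ADM, the peptide hormone adrenomedullin, stood at 78.1% (71.7% to 84.0%, median 76.4%). Across the 15, apparent half-lives ran from 18.7 min in MYC to 31.6 min in GADD45B, and the labelled and unlabelled libraries overlapped in none of them. The 15 were chosen by this difference in the same libraries, so the lack of overlap is no separate evidence.

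**Figure D2:**
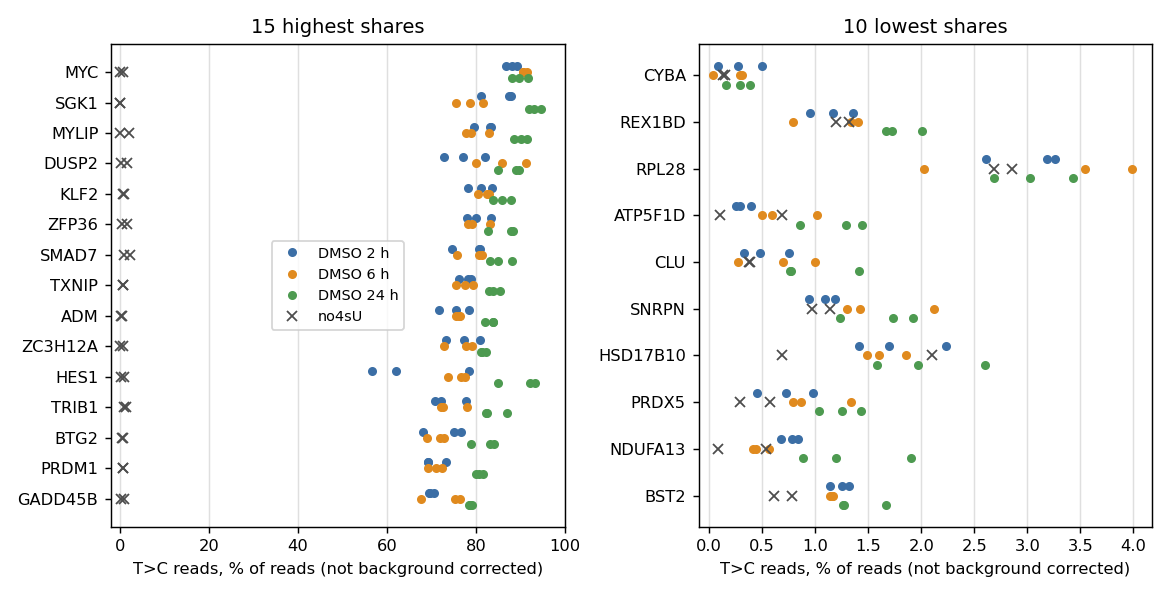
T>C reads as percent of reads, before background was subtracted, in each library for the genes with the 15 highest (left) and 10 lowest (right) labelled shares; each point is 1 library, coloured by DMSO harvest time, and crosses are the 2 no4sU libraries. On the left, every labelled point is at 56.7% or more and every cross at 2.27% or less; on the right, where the axis ends near 4%, points and crosses overlap in every gene but BST2.

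Beyond the 15, the range of 50% or more held other genes of the same kinds, named here with their values known. KLF6, a zinc finger factor, had a share of 73.1%, TNFAIP3 (A20), which removes ubiquitin from NF-kB signalling complexes, 70.3%, and NFKBIA, which holds NF-kB in the cytoplasm, 67.7%. PIM1, a survival kinase, reached 67.1%, and CDKN1B (p27), an inhibitor of cell cycle kinases, 65.4%. ZFP36L2 at 67.9% and ZFP36L1 at 64.9%, relatives of ZFP36, were in the same range. In this range, 42 of the 78 genes were in none of the 36 gene lists described next. In 37 of the 78, at least 1 labelled library lay under 50%.

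Because AU-rich elements in the 3′ untranslated region (3′ UTR) are known to mark short-lived messages, the 3′ UTR of each measured gene was searched for the core TATTTAT on the sense strand. It was found in 2141 of all 6556 3′ UTRs (32.7%). Of the 15 highest shares 9 held it, in 3′ UTRs of 499 to 2453 bases, and of all 3078 measured genes with 3′ UTRs of those lengths 23.1% did. Of the 10 lowest shares, with 3′ UTRs of 106 to 1370 bases and a median of 314, 0 held it. Of the 2665 measured genes in that range of lengths 13.4% did, but their median was 624 bases. The lengths were thus not matched, and 10 genes are few for this comparison. The match nearest the 3′ end is shown for the 5 highest shares whose sequence is given here, as 30 bases of hg38 on the gene's strand with the core in capitals: SGK1 at chr6:134169476-134169505 (minus strand), MYLIP at chr6:16148130-16148159 (plus), DUSP2 at chr2:96143207-96143236 (minus), KLF2 at chr19:16327101-16327130 (plus) and ZFP36 at chr19:39409221-39409250 (plus).
SGK1: aaaatgggcatTATTTATgttttttttttt
MYLIP: attccaagaggTATTTATtttttcacttgt
DUSP2: ttagcactttaTATTTATacagaacattca
KLF2: actgtgactggTATTTATtggacccagaga
ZFP36: tgattttatagTATTTATatatattgggtc
The match lay 232, 101, 50, 1567 and 174 bases before the end of the 3′ UTR in these genes, in the order given. PRDM1 had 4 matches and ZFP36 had 3, whereas SGK1, MYLIP, DUSP2 and KLF2 each had 1. TXNIP, ADM, ZC3H12A, HES1, TRIB1 and GADD45B had none.

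Over windows of equal length, the core was more frequent the higher the share. In the last 300 bases of the 3′ UTR of the 5978 genes that had them, TATTTAT was found in 9.23% of genes, and by range in 3.80% under 1%, 5.09% at 1 to 5%, 9.82% at 5 to 20%, 14.2% at 20 to 50% and 27.6% at 50% or more. Its reverse complement ATAAATA, of the same length and read on the same strand, was found in 11% of all and in 15.8% at 50% or more. The T content of these windows also rose with the range, from a median of 22.3% under 1% to 34.5% at 50% or more. Among the genes with the most T (36% or more of the window), the core was in 13.3% of the 211 genes with a share under 5%, 22.7% of the 322 at 20% or more and 40.0% of the 30 at 50% or more, and the reverse complement in 15.2%, 14.6% and 13.3%. Among genes with the next most T (31.3% to 35.7%) both rose, the core from 6.38% to 12.1% and 20.8% and the reverse complement from 11.4% to 19% and 29.2%, so the difference between the 2 was not the same at every T content. The shorter core ATTTA, which TATTTAT contains, was in 44.8% of all windows and 59.2% at 50% or more, and its reverse complement TAAAT in 57.3% and 60.5%. However, TATTA, the same letters in another order, was in 34.1% of all windows and 47.4% at 50% or more. The rise was thus not particular to ATTTA. The Pumilio element TGTANATA, which recruits another family of decay factors, was in 9.74% of all windows, 2.53% under 1%, 17.6% at 20 to 50% and 14.5% at 50% or more. A match is only a run of letters here and was not tested as a binding site.

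At the other end, the 10 lowest shares were taken from the 1048 genes with 5000 or more reads on each side that met the other conditions, so they are abundant messages by choice. CYBA, the membrane subunit of the phagocyte NADPH oxidase, had T>C reads of 0.0354% in its lowest library, 0.286% in its median and 0.501% in its highest, against 0.152% and 0.129% without 4sU, which left a share of 0.125%. RPL28, a protein of the large ribosomal subunit, had 2.03% to 3.98% (median 3.19%) against 2.85% and 2.69%, which left 0.306%. ATP5F1D, a subunit of the mitochondrial ATP synthase, had 0.255% to 1.44% (median 0.590%) against 0.687% and 0.107%, which left 0.316%. In all of these, the labelled libraries overlapped the unlabelled ones. The other 7 were REX1BD at 0.130%, CLU (clusterin, a secreted chaperone) at 0.331%, SNRPN (a spliceosomal Sm protein) at 0.379%, HSD17B10 (a mitochondrial dehydrogenase) at 0.385%, PRDX5 (a peroxiredoxin) and NDUFA13 (a subunit of respiratory complex I) both at 0.569%, and BST2 (tetherin, an interferon-induced surface protein) at 0.577%. Only PRDX5 and NDUFA13 were called above background (edgeR adjusted p = 0.0091 and 0.023). BST2 differed by less than 2-fold (log2 ratio 0.86, adjusted p = 0.00049), although its lowest labelled library, at 1.14%, lay above both unlabelled ones at 0.615% and 0.784%. For the other 7, the adjusted p lay between 0.14 and 0.78, so that no half-life can be given for them.

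The number of T positions a read can show moved with the share. Reads covered a median of 24.1 T positions, but 4.56 in ATP5F1D, 7.31 in CYBA and 8.28 in RPL28. Across genes, the Spearman correlation of share with T positions per read was 0.32 over 6556 genes, which share libraries and are not independent replicates. With the genes cut into 5 equal groups by T positions, the median share was 4.21% in the group with the fewest and 9.77% in the group with the most. The group with the fewest held 85 of the 118 genes under 1%, 5 of the 10 lowest shares and 0 of the 15 highest. Counting conversions per covered T position instead of T>C reads takes the number of positions into account, and by this rate the 10 lowest shares ranked between percentiles 0.2 and 2.6 and the 15 highest between 99.6 and 100 of all genes. SNRPN and BST2, with 30.3 and 30.6 T positions per read, had low shares despite T-rich reads.

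**Figure D3:**
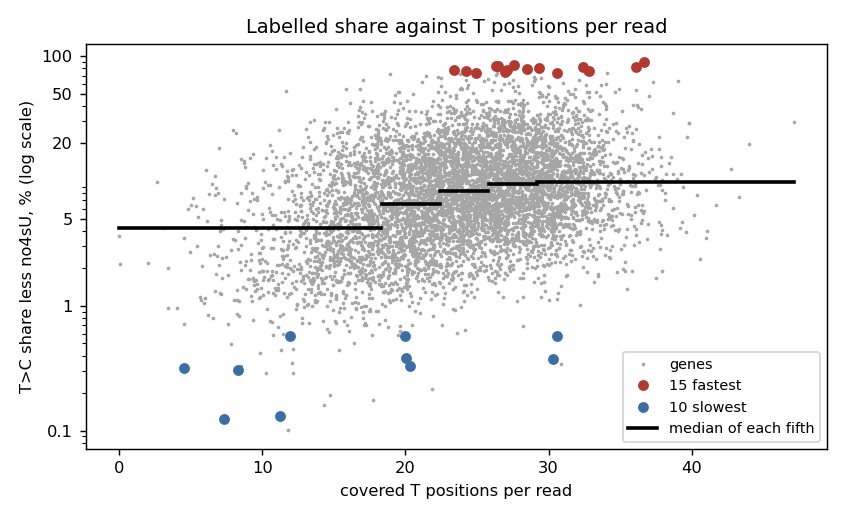
Labelled share (percent, log scale, genes at 0.1% or more) against covered T positions per read; each grey point is a gene, red the 15 highest and blue the 10 lowest shares, and black lines the median of each of 5 equal groups of genes. The medians rise from 4.21% to 9.77%, and the red points start above 20 T positions whereas 5 of the blue ones lie in the lowest of these groups.

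By function, the gene lists covered almost the whole range. At the top, the median share was 59.9% for immediate-early transcription factors (11 of 28 listed were measured), 59.0% for the ID and HES repressors (4 of 10), 46.6% for ERK phosphatases and Sprouty genes (7 of 14) and 37.0% for the 3 PIM kinases, against 7.66% over all genes. At the bottom, it was 2.10% for cytosolic ribosomal protein genes (77 of 84), 2.40% for oxidative phosphorylation (75 of 83), 2.45% for iron, metal and redox genes (16 of 24) and 2.72% for glycolysis (16 of 18). Shares of 20% or more were found in 843 of all genes (12.9%) and shares under 5% in 2101 (32%). These lists were described and not tested, and the members measured are those with enough reads.

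Immediate-early factors are switched on within minutes of a stimulus without new protein. In this list, 10 of the 11 measured members had 20% or more and 7 had 50% or more. KLF2 was highest at 81.9% and JUND, the Jun family member with steady expression, lowest at 19.0%. ATF3 had 63.6%, JUN 62.8% and JUNB 59.9%. Therefore even the lowest member lay above the median of all genes. In the list of ERK phosphatases and Sprouty genes, all 7 measured had 20% or more, from 82.7% in DUSP2 to 20.3% in DUSP16. In the ID and HES list, HES6 at 5.44% stood apart from HES1, ID3 and ID2, at 76.4%, 61.1% and 56.8%.

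The transcription factors on which plasma cells depend were spread over the range. Of 14 measured out of 15 listed, 9 had 20% or more, and the median was 22.6%. MYC at 89.2% and PRDM1 at 73.3% were followed by IRF4, the myeloma dependency that acts with them, at 46.6%. Before subtraction of background, IRF4 had 42.7% ± 1.72 (SD, n = 3) at 2 h, 44.4% ± 1.05 at 6 h and 53.8% ± 1.80 at 24 h, an apparent half-life of 1.11 h over the 9 libraries. The Ikaros factors IKZF3 and IKZF1 had 24.2% and 21.4%, and XBP1, the factor of the secretory program, 16.7%. The lowest was POU2AF1 (OCA-B), a B cell coactivator, at 4.67%. Products of the plasma cell program were slower: myeloma surface antigens had a median of 5.20% (13 of 21 measured), from 13.4% in CD48 to 1.07% in GPRC5D, with CD38 at 5.77%, SDC1 (syndecan-1) at 4.89% and TNFRSF17 (BCMA) at 7.49%. JCHAIN and MZB1, which serve antibody assembly, had 4.26% and 3.35%.

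Regulators and their partners differed within several lists. In the MAX network (8 of 10 measured, median 14.1%), MYC had 89.2% and its obligate partner MAX 5.26%, the lowest of the list. Among NF-kB genes (12 of 18, median 9.49%), the feedback inhibitor TNFAIP3 had 70.3%, the subunit RELA 7.67% and the subunit NFKB2 3.78%, the lowest. In the BCL2 family (11 of 17, median 9.96%), the proapoptotic BBC3 (PUMA) had 35.3% and the prosurvival MCL1 31.0%, whereas the effector BAX had 2.45% and BAD 1.73%. Among G1 regulators (10 of 15, median 17.9%), the inhibitor CDKN1B had 65.4% and the kinase CDK4 5.04%. In each of these lists, thus, the highest and lowest member lay more than 30 percentage points apart.

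Stress response lists showed the same width. The p53 targets (14 of 25 measured) had a median of 21.8%, from 75.3% in BTG2 to 2.45% in BAX. The ATF4 amino acid stress genes (13 of 21) had a median of 20.02%, from 34.4% in ATF4 itself to 1.94% in ASNS, the asparagine synthetase. In the list of mRNA decay and deadenylation regulators (32 of 41, median 18.4%), ZFP36 was highest at 81.5% and EDC4, a scaffold of the decapping complex, lowest at 5.34%, and the CCR4-NOT scaffold CNOT1 had 8.30%. The ZNF zinc finger genes, a large class of transcription factors, had 86 measured of 505 and a median of 23.9%, with 52 at 20% or more, from 62.6% in ZNF217 to 1.45% in ZNF90. The histone acetyltransferase genes (13 of 14 measured, median 15.7%) ran from 27.7% in KAT6B to 1.40% in NAA10, with CREBBP at 26.5% and EP300 at 22.2%, the genes of the CBP and p300 proteins.

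Among the lists with low medians, the ribosomal and respiratory ones held no gene at 20% or more, whereas glycolysis and the secretory pathway held single fast genes. Of 77 cytosolic ribosomal protein genes, 66 had shares under 5% and 0 reached 20%, from 10.7% in RPL7L1, a ribosome assembly factor caught by the naming pattern, to 0.306% in RPL28. Their reads held a median of 15.6 T positions, fewer than the 24.1 of all genes, and by conversions per T position the median percentile of the list was 11 against 8.9 by share. Of 75 oxidative phosphorylation genes, 61 were under 5%, from 14.1% in ATP5MK to 0.316% in ATP5F1D. In glycolysis, 13 of 16 were under 5%, down to 1.21% in GPI, whereas the glucose transporter SLC2A1 had 36.6%. GAPDH, on 704554 reads, had 1.42%. Among genes of the secretory pathway and the unfolded protein response (39 of 41, median 3.58%), the stress sensor ERN1 (IRE1) had 55.3% and the chaperone DNAJB9 51.2%, but the chaperones HSP90B1 and CALR had 3.51% and 3.06%. The lowest, SRP14 at 0.344%, had 33.0% T>C reads without 4sU, so its value rests on a large subtraction.

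Between these extremes, the ER and lysosome lists lay low and the nuclear machineries near the middle. Lysosome and autophagy genes had a median of 3.61% (ATG12 18.9%, PSAP 0.708%), polyadenylated histone genes 4.14% (H2AX 18.5%, H2AZ2 1.18%) and interferon-stimulated genes 4.82% (IRF1 61.8%, BST2 0.577%). The proteasome had 5.68% (PSMD12 24.1%, PSMB10 1.91%), mitochondrial ribosomal proteins 5.78% (MRPL44 19.0%, MRPL11 1.72%) and aminoacyl-tRNA synthetases 5.79% (LARS1 12.7%, WARS1 2.43%). Sterol and fatty acid synthesis had 6.25% (lowest PMVK, 1.85%), heat shock chaperones 6.40% (BAG3 23.6%, HSPB1 1.77%), histone deacetylases 6.57% (SIRT1 37.9%, SIRT2 2.03%) and solute carriers 6.62% (SLC25A25 69.2%, SLC25A39 1.42%). All of these medians were below that of all genes.

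DNA replication genes had 7.15% (CDC6 24.6%, POLD2 2.41%) and HLA and antigen presentation genes 7.62% (only 5 of 22 measured, TAPBP 31.0%, CD74 1.34%). Ribosome biogenesis genes had 7.96% (POLR1C 25.4%, NHP2 1.78%). Mitosis genes had 8.81% (KIF23 24.6%, TPX2 4.89%), SR and hnRNP splicing factors 9.02% (HNRNPA0 20.4%, SRSF9 2.35%), and Mediator, RNA polymerase II and TFIID genes 9.16% (MED26 64.5%, MED25 0.495%). These 6 lists lay within 2 percentage points of the median of all genes. IRF1 and MED26 show that single fast members occurred in lists that were otherwise near or below the middle.

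**Figure D4:**
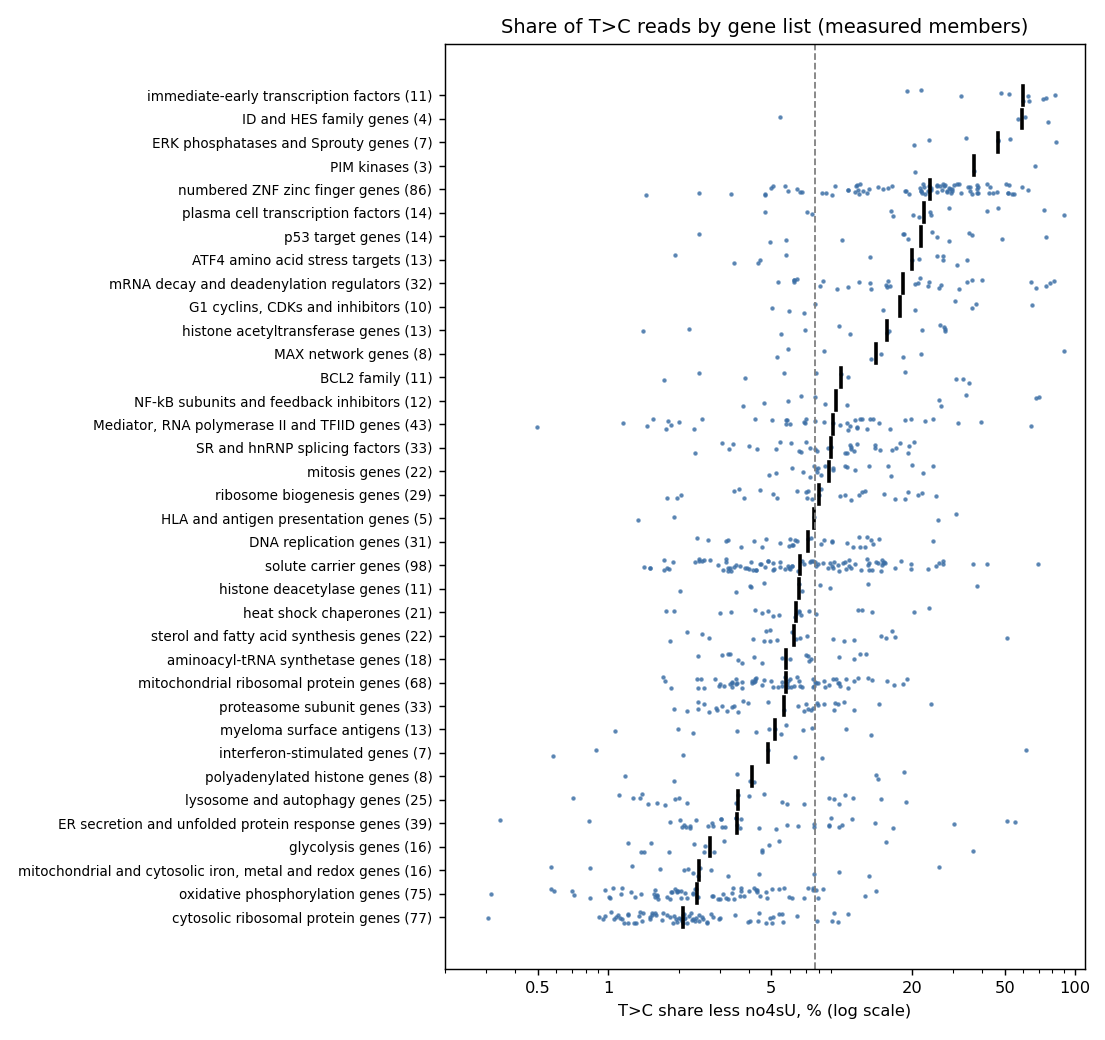
Labelled share (percent, log scale) of each measured member of 36 gene lists (points; number measured in brackets) with the list's median (black bar), ordered by median; the dashed line is the median of all genes, 7.66%. Medians run from 59.9% for immediate-early factors to 2.10% for cytosolic ribosomal proteins, and single fast genes occur in lists with low medians.

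Whether the share was the same at the 3 vehicle harvests was tested next. Between 6 and 2 h, 0 of 6556 genes were called (0%) by edgeR at an adjusted p under 0.05 and over 2-fold, 3 passed the adjusted p alone, 367 had an unadjusted p under 0.05, and DESeq2 also called 0. The median ratio was 1.04. Between 24 and 2 h, 304 genes (4.64%) were called higher and 0 lower, and the median ratio over all genes was 1.41 (log2 0.49), so the rise was general. The count was 190 without DMSO 24 h replicate 1 and 23 with reads summed over the transcripts of a gene. T>C reads also carried more conversions each at 24 h, 2.46 to 2.51 against 2.12 to 2.22 at 2 and 6 h, and what part this had in the rise was not tested. With each library's shares taken relative to its own overall share, the median log2 ratio was -0.02 and 4 genes were called higher, namely CHST14, GBA2, TCOF1 and TRAF3IP1. Before subtraction, TRAF3IP1 had 0% T>C reads at 2 h and 5.01% ± 4.77 (SD, n = 3) at 24 h, so its call rests on a floor of 0.

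By range, the median ratio of 24 to 2 h was 1.31 under 1%, 1.41 at 1 to 5%, 1.42 at 5 to 20% and at 20 to 50%, and 1.24 at 50% or more, where 0 of 78 genes were called. A share cannot exceed 100%, which limits that ratio for the fastest genes. Before subtraction, T>C reads of PRDM1 rose from 70.6% ± 2.30 (SD, n = 3) to 80.8% ± 0.771 (log2 ratio 0.19, adjusted p = 0.021), under 2-fold and less than the shift of all genes, and relative to the library its log2 ratio was -0.32 (adjusted p = 0.0095). HES1 had 65.8% ± 11.4 at 2 h and 90.1% ± 4.54 at 24 h, which missed the threshold (adjusted p = 0.09). MYC had 88.1% ± 1.18 and 89.9% ± 1.84 (adjusted p = 0.81). Despite the shift, the order of genes was much the same: the Spearman correlation of shares across 6556 genes was 0.948 between 2 and 24 h and 0.947 between 2 and 6 h, against 0.17 between DMSO and no4sU.

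Last, the genes were followed into a readout that the shares did not use, the total reads after 2 h of dCBP-30. For this the ranges were rebuilt from DMSO 6 and 24 h alone, so that no library stood on both sides. Of all 6556 genes, 103 (1.57%) had lower total reads than DMSO at 2 h at an adjusted p under 0.05 and over 2-fold. By range, these were 41 of 90 genes (45.6%) at 50% or more, 57 of 863 (6.60%) at 20 to 50%, 5 of 3697 (0.135%) at 5 to 20%, and 0 of 1801 and 0 of 105 below. The median log2 fold change was -0.82 at 50% or more, -0.06 at 20 to 50% and between -0.05 and -0.01 in the other ranges. Total reads are relative within a library and come from bulk cells, so fewer cells of a kind and less RNA per cell cannot be told apart. Genes were kept by their reads in cells without dCBP-30. An RNA with a long half-life loses few reads in 2 h even if its synthesis stops. At the median apparent half-life of 8.70 h, a call of over 2-fold was out of reach unless decay also changed. Counts in the ranges under 20% were therefore limited in advance by the share itself, and loss of synthesis there was not tested. The same limit held at 20 to 50% for every gene with an apparent half-life over 2 h. The counts of the ranges therefore do not compare loss of synthesis on equal terms.

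Of the 15 highest shares, which were chosen with the DMSO 2 h libraries included, 13 had lower total reads. By comparison, 41 of 90 genes (45.6%) at 50% or more were called lower, and 1.57% of all 6556 genes. From DMSO 6 and 24 h alone, the shares of these 15 lay between 74.8% in PRDM1 and 90.0% in MYC. MYC went from between 119.6 and 125.4 RPM in the 3 DMSO 2 h libraries to between 2.02 and 4.57 under dCBP-30, a log2 fold change of -5.37 ± 0.26 (SE, adjusted p = 5.9e-13). HES1 went from 14.5 to 16.4 to between 0 and 0.508 (-5.89 ± 0.43), and SGK1 from 11.02 to 16.9 to between 0.0593 and 0.965 (-5.04 ± 0.44). In all of these genes the groups did not overlap. The exceptions were DUSP2, with 13.9 to 16.5 in DMSO and 14.5 to 24.4 under dCBP-30 (0.37 ± 0.26, adjusted p = 0.52), and ZC3H12A, whose decrease stayed under 2-fold (-0.95 ± 0.17, adjusted p = 0.00081). None of the 10 lowest shares was called, which their low shares limited in advance.

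Not every gene with a high share had fewer reads. Of the 78 genes with a share of 50% or more over all 9 libraries, 38 were called lower and 23 had a log2 fold change above 0. JUNB, with a share of 59.9%, had 0.35 (adjusted p = 0.28), FAM83D, with 72.8%, had 0.21 (adjusted p = 0.56), and ZNF557, with 59.5%, had 0.77 (adjusted p = 0.00019), under 2-fold. By list, total reads were lower for 5 of 14 plasma cell factors, 4 of 11 immediate-early factors, 4 of 7 ERK phosphatases and Sprouty genes and 3 of 4 ID and HES genes. The corresponding count was 1 of 86 for the ZNF genes, of which 52 had shares of 20% or more, and 0 of 77 for cytosolic ribosomal proteins. Over all 6556 genes it was 103 (1.57%), so the counts of these last 2 lists were near the share of all genes. Ribosomal protein genes, with a median share of 2.10%, were out of reach of a call unless decay also changed. So were ZNF genes (median 23.9%) with an apparent half-life over 2 h. Neither count shows whether synthesis in these lists was kept.

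**Figure D5:**
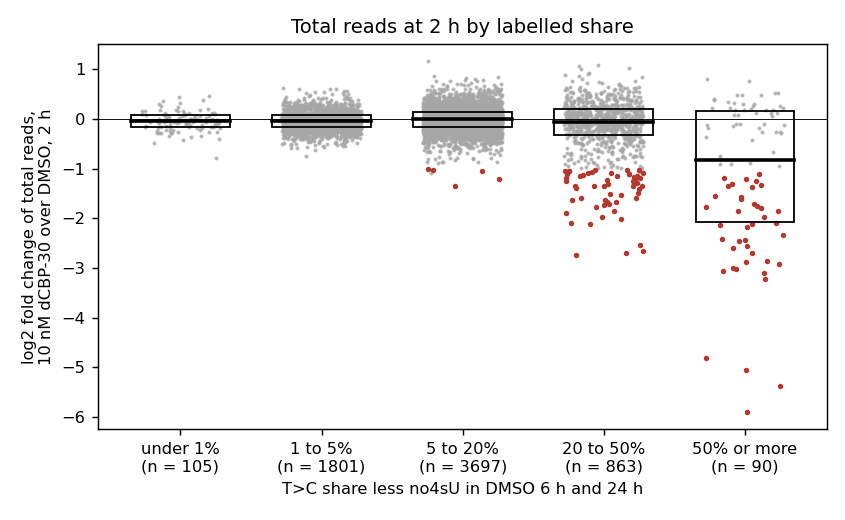
Log2 fold change of total reads, dCBP-30 over DMSO at 2 h, for each gene (points; red where called lower) by labelled share in DMSO 6 and 24 h; boxes span the quartiles and the thick line is the median. The median is -0.82 in the 90 genes at 50% or more and between -0.06 and -0.01 in the other ranges, and the called genes lie almost all at 20% or more.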

How the data were processed

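The MM1.S libraries were made from 3′ ends of RNA after 4sU labelling and alkylation. The authors trimmed reads with TrimGalore and ran Slamdunk with default settings on 3′ UTRs of hg38. They report that multimapping and low-quality reads were removed, and they collapsed the result per transcript. The deposited counts still mark 5.78% to 7.55% of a library's reads on genes as multimapping, and these were kept here. The deposited values used here are raw counts per transcript (all reads, those with T>C, T positions covered and conversions at them), with no pooling of replicates. Drosophila RNA added as a spike-in was not used here.

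Of 97466 transcript rows, 89088 (91.4%) matched GENCODE release 44, and the rest held at most 0.199% of a library's reads. Each gene took the transcript with the most reads over all libraries. The DMSO time points and no4sU were fitted together with edgeR 4.0.16 (R 4.3.3, quasi-likelihood, robust) on T>C reads with the log of the gene's reads as offset (0 reads set to 0.5), and Benjamini-Hochberg adjustment over 6556 genes. Total reads of the 18 labelled libraries were fitted with TMM factors and filterByExpr, 12303 genes being tested. The scripts were tested on simulated data. DESeq2 1.42.0, other read minimums, summed transcripts, single time points, and fits with the replicate number as a block or with 1 library left out were alternatives.

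Named genes were the 15 highest shares with 20 or more reads in each DMSO library, at most 5% T>C reads without 4sU and no overlap of 3′ UTRs, the 10 lowest with 5000 or more reads on each side, and the fastest and slowest member of each list. Other genes were named with their values known. One list member is not reported here. The members, lists and rules were chosen with earlier results of these data known. Of the measured genes, 414 had a 3′ UTR that overlaps another on the same strand. Libraries of a group were not copies (chi-square per degree of freedom between 8.54 and 50.1). All 6556 sequences matched the deposited length and T count. Intervals were not computed, and errors of shares pooled over libraries would cover counting only, since reads carry no molecular identifiers.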

Additional observations from a re-analysis of the deposited data

Results flagged for a closer look

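Groups of 2 and 3 libraries are too small for a check on outlying samples. The named genes were instead screened for a share of T>C reads, before subtraction of background, that differed between vehicle harvests, and 3 of them had a higher share at 24 h than at 2 h at an adjusted p under 0.05 and over 2-fold. ATP5F1D went from 0.312% ± 0.0709 (SD, n = 3) to 1.20% ± 0.30 (log2 ratio 1.92, edgeR adjusted p = 0.013). Without 4sU it had 0.687% and 0.107%, so the value at 2 h lay within the range of the background, and its reads covered only 4.56 T positions. ATP5MK went from 10.0% ± 3.18 to 22.6% ± 1.34 (1.20, edgeR adjusted p = 0.0084). POLD2, a subunit of DNA polymerase delta, went from 1.82% ± 0.618 to 3.80% ± 0.785 (1.06, edgeR adjusted p = 0.0051). All genes rose by a median of 0.49 in the same contrast, and relative to the library the log2 ratios were 1.40, 0.68 and 0.55 (edgeR adjusted p = 0.44, 0.57 and 0.6), so that none was called.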

How the results depend on the processing

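The median share of 7.66% lay between 6.52% and 7.79% when each library was left out in turn, became 5.55% with 2000 or more reads on each side and 9.32% from DMSO 24 h alone, and moved by less than the spread between libraries (SD 1.46) under the other alternatives. The 78 genes at 50% or more became 28 with 2000 reads, 163 with 100 reads, 135 from 24 h alone and between 47 and 82 with a library left out, the lowest without no4sU replicate 1, when fewer genes pass the read minimum. The 118 genes under 1% became 26 without subtraction of background, 70 with 2000 reads, 189 with 100 reads, 283 from 2 h alone and 234 from 6 h alone, and between 95 and 134 with a library left out. Calls above background ranged from 4242, of 4485 tested without no4sU replicate 1, to 6246 with a library left out. Calls of 24 against 2 h fell from 304 to 4 relative to the library and to 23 with reads summed over transcripts, and lay between 190, without DMSO 24 h replicate 1, and 347. For the summed reads, the cause was not tested. Calls of 6 against 2 h stayed at 0 except for 1 without DMSO 2 h replicate 3. Total reads called lower at 50% or more numbered 41 or 42 in every alternative run. The 15 highest shares stayed at percentile 99.6 or above under every alternative run, and the 10 lowest at 2.9 or below except RPL28, at 11.4 without subtraction. Of 36 lists, 8 crossed the 50th percentile under at least 1 alternative. Among them, HLA and antigen presentation genes moved from a median percentile of 49.8 to 61.3 with reads summed over transcripts.

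Same-numbered DMSO libraries had correlations of -0.03 to 0.043 in their deviations, so the numbers do not pair them. In total reads at 2 h, same-numbered DMSO and dCBP-30 libraries had correlations of 0.042, -0.102 and -0.478, and differently numbered ones reached 0.467. With the replicate block, 6195 genes were called above background, 299 at 24 against 2 h, 0 at 6 against 2 h, and 41 of 90 in total reads.

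Only 30 of the 118 genes under 1% were called, although their median of 14694 reads was the highest of the 5 ranges. Their reads covered a median of 15.7 T positions, 14 of them had over 5% T>C reads without 4sU, and 2 unlabelled libraries set the background of every gene.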
